A study of Chrysanthemum x morifolium with 12 samples.

Results

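Of 176026 contig probes on the chrysanthemum array, 70270 reached a signal minimum. Of the latter, 3 that the study matches to 1 closest Arabidopsis gene were left out of the set. Among the rest, 57 had changed more than 5-fold in the same direction in petals of both bud sports of Feeling Green. Of these, 32 probes were expressed higher and 25 lower in the white sport and in the dark green sport than in the parent. A bud sport is a shoot that carries a somatic mutation and is kept as a new cultivar. Feeling White (FW) and Feeling Green Dark (FGD) arose in this way from Feeling Green (FG). The samples were mature leaves of FG and stage 2 ray floret petals of FGD (darker green), of FW (white), and of FG (green), from plants grown in a greenhouse in natural daylight, with 3 biological replicates and 3 arrays for each of the 4 groups. Stage 2 is the stage at which the outermost ray florets start to open. Each sport was 1 cultivar, so that petal color and any other difference between the cultivars cannot be told apart.

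Petals of most chrysanthemums lose chlorophyll (Chl) as they mature, and green-flowered cultivars retain it. FW petals thus lie below FG petals in greenness and FGD petals above them, so that a gene that changes alike in both sports does not follow greenness among the petals. Such a gene instead sets the parent apart from both of its sports. Which genes the probes stand for is mostly not stated in the files, which hold neither gene names nor probe sequences. Probes are therefore given by their identifiers, and levels of different probes were not set against each other.

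The members were chosen by their measured values. Of the probes on the array, 70270 reached the signal minimum, an average of 100 across the 12 arrays after background subtraction. A probe was a member if its mean log2 level in FW petals and that in FGD petals both lay more than 5-fold above, or both more than 5-fold below, the mean of FG petals, and if none of the 6 sport arrays overlapped with the 3 FG petal arrays. A further 3 probes, all for *RADIALIS-like SANT/MYB 4*, met these limits and were left out by the definition of the set. The signal minimum counts the leaf arrays too, and 4 higher and 3 lower members reached it only through them. The members were 0.0455% of the 70270 probes for the higher and 0.0356% for the lower direction, shares that the choice itself fixed. Below the signal minimum, 48 probes higher and 66 lower met the other limits. The differences of the members from FG petals are hence a description, and the comparisons with FG petals use the same 3 FG arrays. In whole petals, a change in the number of cells of a type and a change in RNA per cell cannot be told apart.

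Levels are log2 signals relative to the 75th percentile of each array, so that 1 unit is a 2-fold difference. On each of the 12 arrays, 63.2% to 69.6% of the probes were well above background. Precision is limited by having 3 arrays per group. The labeled tissues were compared by genes of Chl metabolism that the study had singled out on these same arrays. It picked them because their levels followed Chl content, with FG leaves highest or, for *SGR*, very low. Other genes of the pathway, some without a significant difference in the study, were left out of this comparison. The differences below are therefore a description and no independent check of the labels. *CHLH*, *CRD*, *HEMA1*, and *PORC*, which encode enzymes of Chl synthesis, were higher in FG leaves than in the mean of the 3 petal groups by 3.91, 3.64, 3.57, and 2.78 (limma, adjusted p at most 4.67e-10). *SGR*, which encodes a Chl-degrading Mg-dechelatase, was lower in leaves by 2.46 (adjusted p = 3.21e-07). The arrays lay on 3 slides: FW petal replicate 1 shared the first with all FG petal arrays, FGD petal replicates 1 and 2 shared the second with the other FW arrays, and FGD petal replicate 3 shared the third with all FG leaf arrays. FGD and FG petals shared no slide.

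The 32 higher members exceeded FG petals by a median of 3.14 in FGD petals (range, 2.33 to 5.45) and 4.18 in FW petals (2.41 to 7.57). The 25 lower members lay below FG petals at a median difference of −3.81 in FGD petals (−6.49 to −2.56) and −3.91 in FW petals (−6.60 to −2.33). Over all 70270 probes, the median differences from FG petals were 0.01 in FGD and 0.11 in FW petals. With normexp background correction, 11 of the higher and 14 of the lower members met the limits. The limit of 5-fold is 2.32 on the log2 scale. The smaller of the 2 differences was 2.33 for both higher members just inside the limit, and 2.28 and 2.26 for the probes just outside it. In the lower direction it was 2.33 and 2.36 just inside and 2.30 for both probes just outside. The map of all members by array shows that the petal arrays split as the choice required, whereas the leaf arrays range from far above to far below FG petals in both directions.

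**Figure D1:**
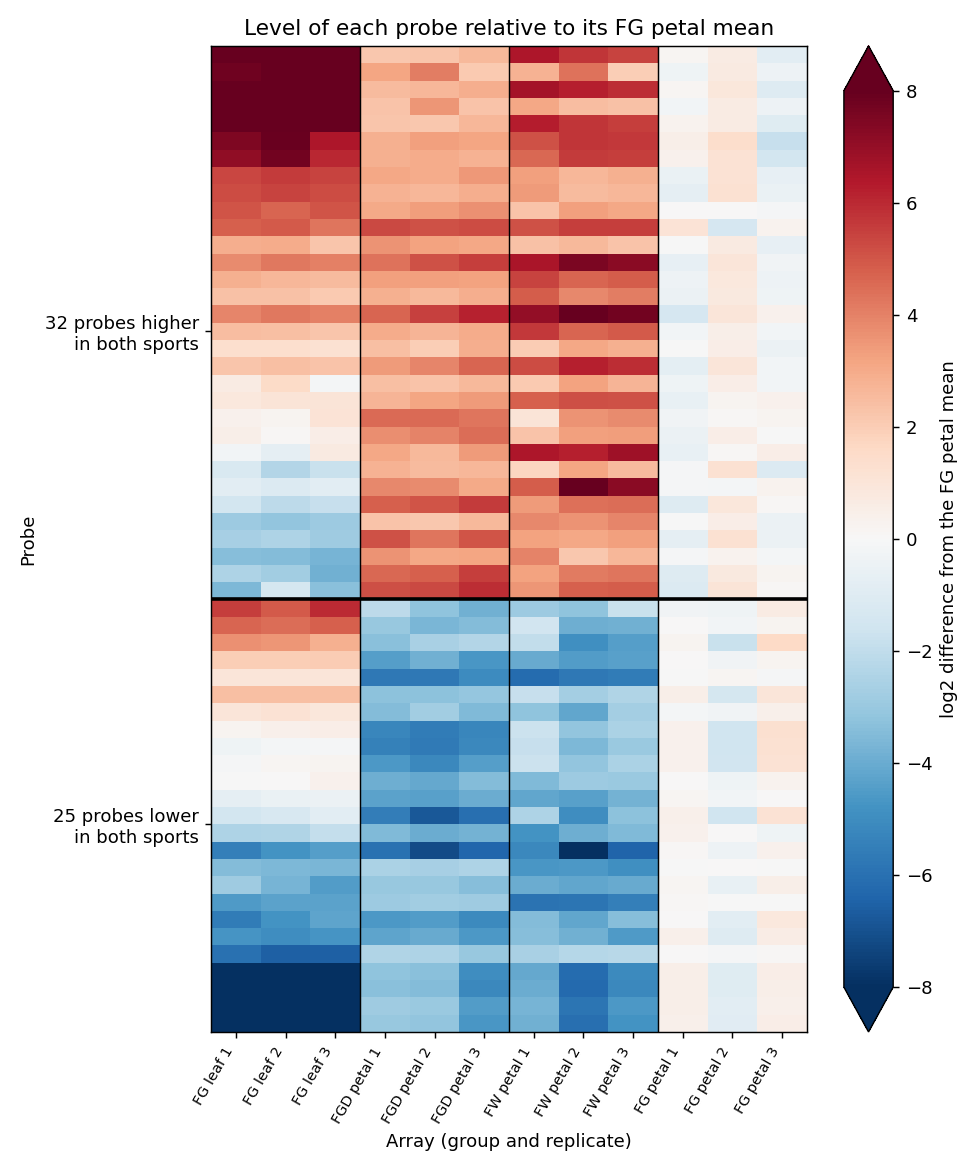
Levels of the 57 probes on the 12 arrays, as log2 differences from each probe's FG petal mean (color scale, cut at 8 above and below). Columns are arrays by group, and rows are probes sorted by the leaf level within each direction. A line divides the 32 higher and 25 lower probes. Leaf means differ from FG petal means by −3.53 to 10.01 in the higher part and by −10.85 to 5.47 in the lower part. By these means, neither part reaches both ends of the color scale.

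The sole member that the study pairs with a gene was PD0028_190240, for a zinc finger protein of the C2H2 and C2HC superfamily. Proteins with such zinc fingers include many plant transcription factors. It comes from a list of transcription factors that the study chose on these arrays, so that its place among the members is not independent evidence. PD0028_190240 was at −3.91, −4.02, and −3.11 in FG leaves, 0.28, 0.31, and 0.03 in FGD petals, −3.17, −0.61, and −0.46 in FW petals, and −4.51, −4.14, and −4.04 in FG petals. All 3 FGD arrays lay above all FW arrays, and FW replicate 1 lay near the FG leaves. In FGD petals it was 21.6-fold and in FW petals 7.03-fold above FG petals. FGD petals exceeded FW petals by 1.62 ± 0.59 (SE; limma, adjusted p = 0.036), and this call was lost when any 1 of the FGD arrays was left out (adjusted p = 0.0622 to 0.0837) and when all probes were tested (adjusted p = 0.0736). Without FW replicate 1 the difference was 0.74 (adjusted p = 0.0325), and with the slide as a block it was 0.83 (adjusted p = 0.0396). On the first slide, which holds FW replicate 1, the difference from the mean of FG petals was 1.06. Of the study's lists, 0 of 31 probes for Chl metabolism, 1 of 24 transcription factors listed for FGD, and 0 of 38 listed for FW were members. Leaving out the 3 probes for *RADIALIS-like SANT/MYB 4* set these counts, and with them 4 of the 24 and 1 of the 38 met the limits. Of those lists, 25, 13, and 25 probes passed the signal minimum.

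Among higher members well above background on all 9 petal arrays, the smaller difference was largest for PD0028_074403 and PD0028_056871. PD0028_074403 was at −6.66, −4.47, and −6.39 in FG leaves, 2.13, 2.23, and 2.84 in FGD petals, 0.46, 1.74, and 1.78 in FW petals, and −4.16, −2.03, and −2.94 in FG petals. The FG leaf arrays lay below all petal arrays, and only 1 of them was well above background. The probe was 43.6-fold above FG petals in FGD and 20.8-fold in FW petals. PD0028_056871 was at −4.23, −4.87, and −4.59 in FG leaves, 2.04, 2.30, and 2.85 in FGD petals, 0.65, 1.67, and 1.70 in FW petals, and −3.76, −1.87, and −2.64 in FG petals. It showed the same order, with FGD petals highest and FG leaves lowest, and again only 1 leaf array was well above background. Its folds over FG petals were 35.6 in FGD and 17.1 in FW petals. The difference of FGD from FW petals was 1.07 ± 0.65 for the first (SE; adjusted p = 0.183) and 1.06 ± 0.45 for the second (adjusted p = 0.0643). Both were called with another background correction (normexp; adjusted p = 0.0214 and 0.0129), at differences of 1.00 and 0.97. With the slide as a block the differences were 0.42 and 0.49 (adjusted p = 0.685 and 0.444), and without FW replicate 1 they were 0.64 and 0.71 (adjusted p = 0.467 and 0.219).

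Among lower members chosen in the same way, the largest were PD0028_101159 and PD0028_034344. PD0028_101159 was at 3.26, 3.29, and 3.31 in FG leaves, −3.09, −2.55, and −3.34 in FGD petals, −2.73, −3.16, and −3.06 in FW petals, and 1.32, 1.04, and 1.54 in FG petals. FG leaves were highest, above FG petals, and the arrays of the sports overlapped with each other. FGD petals were 19.6-fold and FW petals 19.4-fold below FG petals. PD0028_034344 was at 0.01, 0.20, and 0.31 in FG leaves, −3.54, −3.58, and −3.24 in FGD petals, −3.41, −3.57, and −3.06 in FW petals, and 0.93, 0.54, and 0.76 in FG petals. Here FG leaves lay just below FG petals and far above both sports, and FGD petals were 18.4-fold and FW petals 17.1-fold below FG petals. FGD petals differed from FW petals by −0.01 ± 0.20 for PD0028_101159 (SE; limma, adjusted p = 0.956) and by −0.11 ± 0.15 for PD0028_034344 (adjusted p = 0.574). The plot of named probes by array shows these levels.

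**Figure D2:**
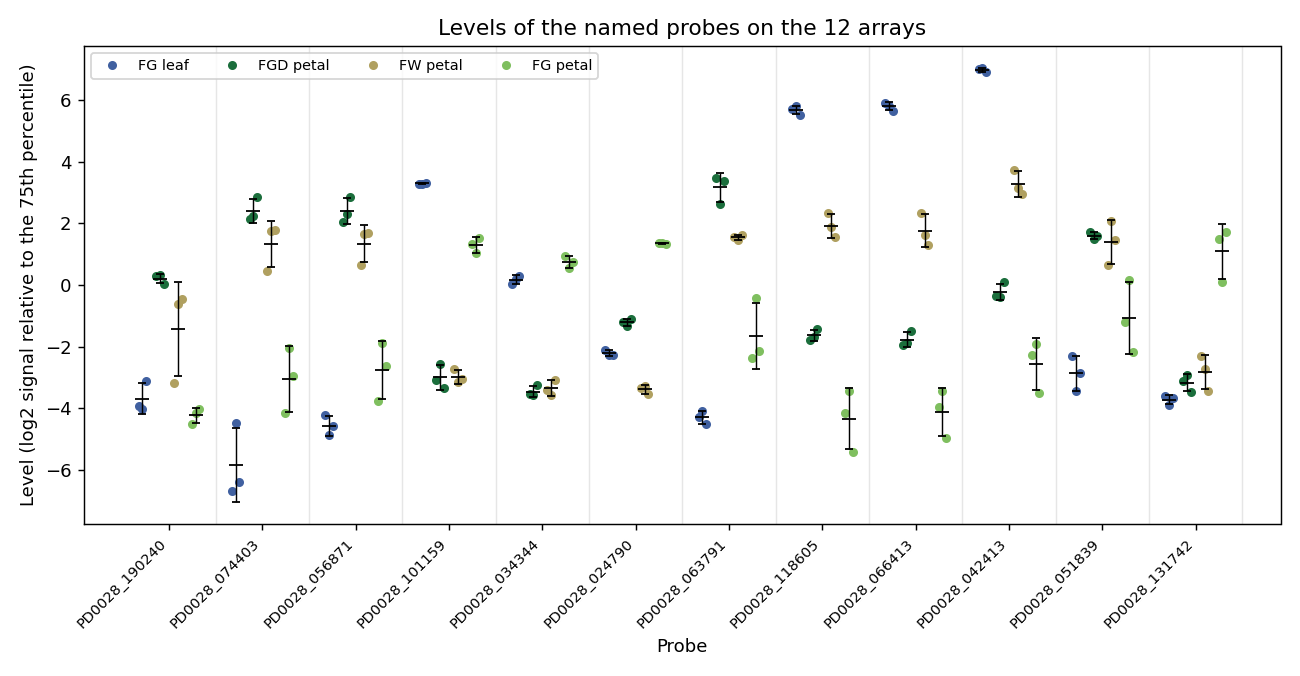
Levels of the 12 named probes on each array (log2 signal relative to the 75th percentile). Points are the 3 arrays of a group, the short line with whiskers is the mean ± SD, and groups run from FG leaves on the left over FGD and FW petals to FG petals; FG leaves lie at 5.52 to 7.02 for PD0028_118605, PD0028_066413, and PD0028_042413 and below −4 for all arrays of PD0028_074403, PD0028_056871, and PD0028_063791.

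Several members with the largest changes were not well above background on all FG petal arrays. PD0028_028188, chosen here after its values were seen, exceeded FG petals 42.5-fold in FGD and 190.5-fold in FW petals, and in FG petals 1 of 3 arrays was well above background. All 3 arrays of a group were well above background for 42 of the 57 probes in FG leaves, 53 in FGD petals, 51 in FW petals, and 48 in FG petals. On all 12 arrays this held for 30 members (52.6%), against 96.4% of the 70270 probes. For 3 higher members no FG petal array, and for 4 lower members no array of at least 1 sport, was well above background, so that the change is a bound. With the dimmest level still well above background put in place of the dim value, 4 of these 7 were past the limit in neither or only 1 of the sports. They are PD0028_142728 (at least 2.38-fold higher in FGD and 2.23-fold in FW petals), PD0028_050889 (at least 3.35-fold higher in FGD and 3.18-fold in FW petals), PD0028_157157 (at least 2.74-fold lower in FGD and 2.59-fold in FW petals), and PD0028_183059 (at least 3.80-fold lower in FGD petals). Each of the 4 reached the signal minimum only through FG leaves, and was therefore highest there, at leaf means of 1.40 to 2.29 against −7.25 to −3.24 in the petal groups.

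The replicates of the members lay far apart in petals. The median SD over the members was 0.21 in FG leaves, 0.31 in FGD petals, 0.53 in FW petals, and 0.71 in FG petals, against 0.14, 0.12, 0.12, and 0.10 over all 70270 probes. FG petal replicate 2 was the FG array nearest to the mean of the sports for 48 of 57 members (27 higher and 21 lower), or 84.2%, against 42.1% of all probes. It lay above the mean of the other FG petal arrays by a median of 1.09 in the higher members (range, −2.06 to 2.06) and below it in the lower members, at a median of −0.91 (−2.71 to 0.21). The median absolute difference was 1.12 over the members and 0.11 over all probes. Without this array, the members exceeded FG petals by 3.44 in FGD and 4.60 in FW petals at the median of the higher members, and differed by −4.06 in FGD and −4.35 in FW petals in the lower members. The number of probes that met the limits was then 52 higher and 52 lower, and these included all 57 members. Leaving out the FG array mostly nearest to the sports widens most differences and eases the overlap limit. That the members stayed is therefore no independent check. Without FG petal replicate 1, 39 probes were lower, of which 22 were members.

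FW petal replicate 1 was the FW array nearest to FG petals for 32 members, or 56.1%, against 37.8% of all probes. It differed from the mean of FW replicates 2 and 3 by a median of −0.40 in the higher and 0.70 in the lower members, which is towards FG petals in both, against −0.03 over all probes. This array shares its slide with the 3 FG petal arrays. On that slide alone, it lay above the mean of FG petals by a median of 3.92 in the higher members (range, 1.06 to 7.04) and at a median difference of −3.53 in the lower members (−6.18 to −1.52), against 0.11 over all probes. Of the 57 members, 45 were past the 5-fold limit on this slide, 26 higher and 19 lower. The choice of members used these same arrays, so that the values on this slide are a description. Without this array, the median difference of FW from FG petals was 4.34 in the higher and −4.07 in the lower members. FGD petal replicate 3, on the slide of the leaves, differed from the mean of the other FGD arrays by a median of 0.32 in the higher and −0.03 in the lower members. FGD petals can be linked to FG petals through FW petals, as the difference of FGD from FW petals on the second slide added to that of FW from FG petals on the first. By this link, chosen after seeing the data, FGD petals differed from FG petals by a median of 3.24 in the higher members (range, 0.96 to 4.92) and −3.10 in the lower members (−6.24 to −0.32), against −0.01 over all probes. It put 25 higher and 19 lower members past the 5-fold limit, and it rests on a single FW array on the first slide. All arrays of the link were also used to choose the members.

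**Figure D3:**
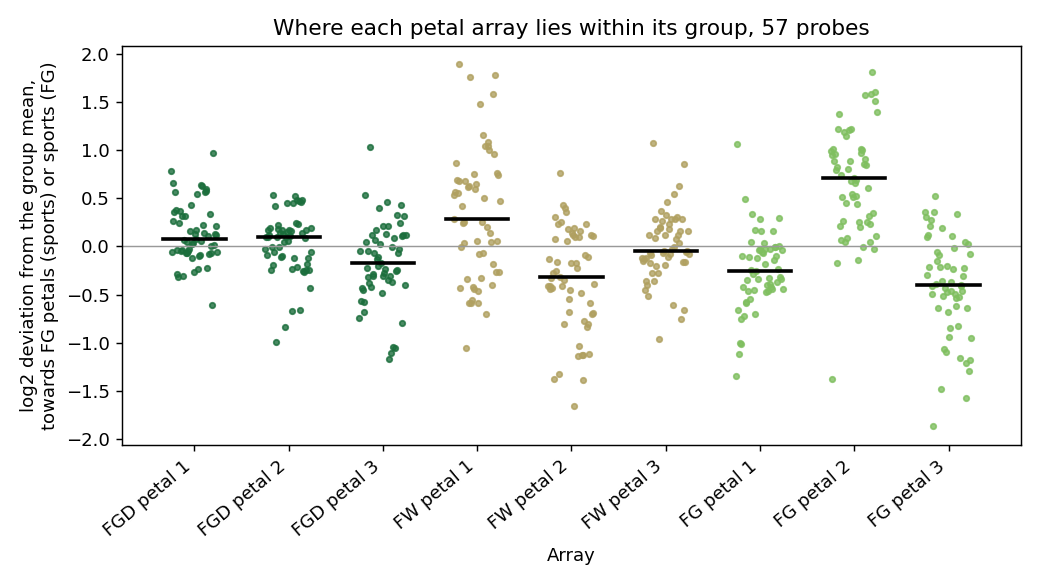
Deviation of each petal array from its own group mean for the 57 probes (log2). Values above 0 point towards FG petals for the FW and FGD arrays and towards the sports for the FG arrays; points are probes, lines are medians, and the median of FG petal 2 is the farthest from 0, above it, followed by those of FG petal 3, below 0, and FW petal 2 and 1.

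The sports were compared with each other to ask whether a change in the same direction was of the same size. The choice of members does not set the direction of this difference, but it used the same arrays and asked for large changes on them, so that the size of the difference and the share of calls are a description. Among the 32 higher members, 4 were higher in FGD than in FW petals and 15 lower (limma, adjusted p under 0.05 over 70270 probes), while 24% of all probes were higher in FGD petals and 33.6% lower. In shares, these were 12.5% and 46.9% of the higher members. Among the 25 lower members, 2 were higher and 5 lower in FGD petals, or 8% and 20%. FGD petals were thus the farther from FG petals in 9 members and FW petals in 17, and 31 were not called. The median difference of FGD from FW petals was −0.24 in the higher members and −0.01 in the lower members, against −0.10 over all probes. Among members not called, the difference ran from −0.25 to 1.07 in the higher and from −1.02 to 1.30 in the lower members.

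With the slide as a block, which sets FGD against FW petals only on the slide they share (replicates 1 and 2 of FGD against 2 and 3 of FW), 2 higher members were higher and 16 lower in FGD petals, and 6 lower members were higher and 4 lower. Of the 6 members called higher in FGD petals, 3 were also called higher with the block, and of the 20 called lower, 19. Without FW petal replicate 1, 8 were called higher, of which 4 were among the 6. Shares over all probes were not counted for these fits, so that the counts describe the members only.

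**Figure D4:**
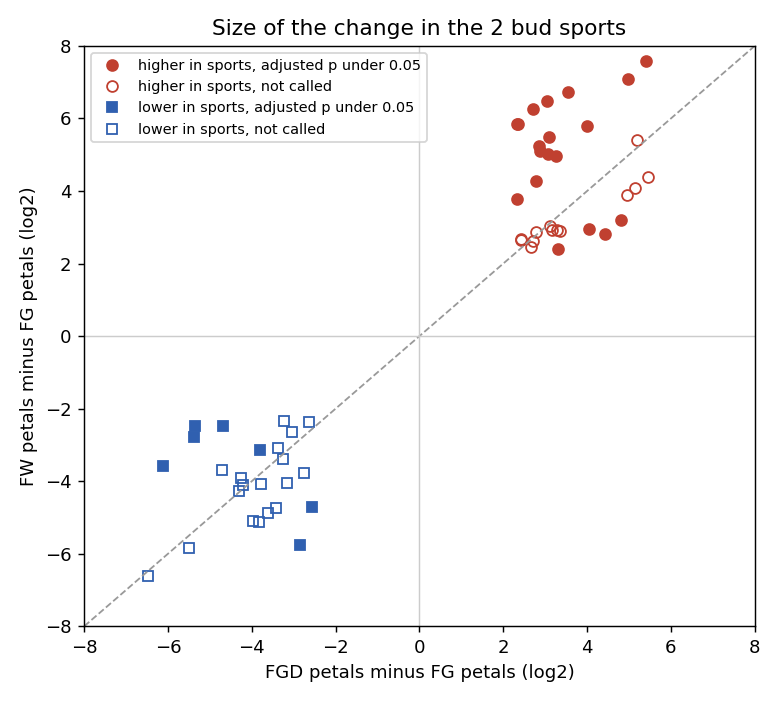
Difference of FW petals (vertical) and of FGD petals (horizontal) from FG petals for the 57 probes, in log2 units. Circles are higher and squares lower members, filled symbols differ between FGD and FW petals (limma, adjusted p under 0.05), and the dashed line marks equal changes; the 15 called circles above the line and the 5 called squares above it are lower in FGD than in FW petals.

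Among members well above background on all 6 sport arrays, those called lowest in FGD relative to FW petals were PD0028_118605 and PD0028_066413. PD0028_118605 was at 5.72, 5.78, and 5.52 in FG leaves, −1.79, −1.68, and −1.43 in FGD petals, 2.34, 1.86, and 1.55 in FW petals, and −4.16, −3.45, and −5.40 in FG petals. The groups did not overlap, with FG leaves highest, then FW petals, FGD petals, and FG petals. FGD petals lay 11.7-fold below FW petals (log2 difference, −3.55 ± 0.39 SE; adjusted p = 3.15e-05; with the slide as a block, 0.000807). PD0028_066413 was at 5.90, 5.82, and 5.65 in FG leaves, −1.94, −1.88, and −1.50 in FGD petals, 2.33, 1.63, and 1.28 in FW petals, and −3.95, −3.42, and −4.96 in FG petals. The order of the groups was the same, and the difference of FGD from FW petals was −3.53 ± 0.36 (adjusted p = 1.68e-05). PD0028_042413 had the same profile as well, and the lowest correlation between these 3 probes over the 12 arrays was 0.9986. Their change in FGD petals was close to the 5-fold limit (6.51-fold, 5.04-fold, and 5.08-fold), against 76.3-fold, 58.0-fold, and 57.2-fold in FW petals.

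Among the same members, those called highest in FGD relative to FW petals were PD0028_024790 and PD0028_063791. PD0028_024790 was at −2.10, −2.27, and −2.28 in FG leaves, −1.20, −1.33, and −1.10 in FGD petals, −3.33, −3.26, and −3.54 in FW petals, and 1.34, 1.37, and 1.32 in FG petals. No groups overlapped, and FG petals were highest, followed by FGD petals, FG leaves, and FW petals. FGD petals lay 4.49-fold above FW petals (log2 difference, 2.17 ± 0.09 SE; limma, adjusted p = 5.8e-08; with the slide as a block, 5.96e-06). PD0028_063791 was at −4.29, −4.08, and −4.51 in FG leaves, 3.48, 2.63, and 3.38 in FGD petals, 1.55, 1.46, and 1.62 in FW petals, and −2.37, −0.42, and −2.14 in FG petals. FGD petals were highest and FG leaves lowest, where only 2 arrays were well above background. The difference of FGD from FW petals was 1.62 ± 0.43 (adjusted p = 0.00797), and it was not called with the slide as a block (1.51, adjusted p = 0.0578).

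Some members shared a profile over the 12 arrays closely, at a correlation of at least 0.99 with another member of the same direction. Whether such probes stand for 1 transcript or for several cannot be told from the files. There were 5 such groups with 12 higher members and 3 groups with 9 lower members, so that 36 members stood alone. A group of 3 lower members, PD0028_042006, PD0028_044506, and PD0028_120381, was chosen after its values were seen. PD0028_042006 was at 1.93, 2.15, and 2.21 in FG leaves, −3.09, −3.35, and −2.86 in FGD petals, 0.47, −1.29, and −0.65 in FW petals, and 2.66, 0.71, and 3.51 in FG petals. Across the 3 probes, FGD petals differed from FG petals by −5.39 to −4.70 and FW petals by −2.78 to −2.47, while FG leaves were within −0.20 to 0.39 of FG petals. FGD petals differed from FW petals by −2.89 to −2.23 (limma, adjusted p at most 0.00746; with the slide as a block, at most 0.0455). In FW petal replicate 1 the level of PD0028_042006 was 0.47, near that of 0.71 in FG petal replicate 2.

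A group of 4 lower members, PD0028_056421, PD0028_039876, PD0028_058335, and PD0028_068482, chosen likewise, had leaf means of −6.35 to −4.90 and FG petal means of 4.31 to 5.61. PD0028_056421 was at −6.49, −6.69, and −5.88 in FG leaves, 0.99, 0.87, and −0.82 in FGD petals, 0.37, −1.92, and −0.82 in FW petals, and 4.79, 3.34, and 4.81 in FG petals. FG leaves were far below all petals, and none of the leaf arrays was well above background. With the dimmest level still well above background put in their place, the probe was at least 479-fold lower in FG leaves than in FG petals. Against the sports it was at least 30.7-fold lower in leaves than in FGD petals and at least 14.0-fold lower than in FW petals. In this group, FGD petals exceeded FW petals by 1.14 to 1.30, which was not called (limma, adjusted p = 0.156 for PD0028_056421 and 0.169 for PD0028_068482) but with the slide as a block the differences were 2.30 to 2.37 and were called in all 4 probes (0.00857 and 0.0486 for the same probes). FW petal replicate 2 had the lowest level of the petal arrays in each of the 4.

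FG leaves were set against the mean of the 3 petal groups. The choice of members moved this mean. It placed FGD and FW petals above FG petals in the higher members and below them in the lower members. Counts, medians, and differences of single members in this comparison are therefore a description. Of the higher members, 12 were higher and 14 lower in leaves, and 6 were not called, where 35.5% of all probes were higher in leaves and 47.0% lower. The shares were 37.5% and 43.8%. Of the lower members, 13 were higher and 10 lower in leaves (52% and 40%), and 2 were not called. The 4 higher and 3 lower members that reached the signal minimum only through the leaf arrays were all called higher in leaves. A high leaf level was their condition of entry, so that these calls were set by the filter. The median difference of leaves from the petal mean was −0.27 in the higher and 2.03 in the lower members, against −0.14 over all probes. It ran from −6.07 to 7.16 and from −8.02 to 7.36. Set against FG petals alone, the medians had the opposite signs, at 2.35 in the higher and −1.21 in the lower members. Against FGD petals they were −1.05 and 3.63, and against FW petals −2.28 and 2.37, where those over all probes were −0.11 against FG, −0.11 against FGD, and −0.21 against FW petals. With the slide as a block, 10 higher members were higher and 14 lower in leaves, and 12 lower members were higher and 7 lower. That fit links leaves to petals only through FGD petal replicate 3, the sole petal array on the slide of the leaves. It links FG petals to the other slides only through FW petal replicate 1. No shares over all probes were counted with the block.

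The leaf levels were also placed against each petal group, without a test. Such placings were not counted over all probes, so that the counts describe the members only. All 3 leaf arrays lay above all petal arrays in 10 higher and 7 lower members, and below all of them in 8 higher and 6 lower members. In the other 26 they lay within the range of the petals. Those above all petals include the 4 higher members that reached the signal minimum only through the leaf arrays. Of the lower members that did so, PD0028_183059 and PD0028_157157 are included. The filter favored this place for them. The leaf mean was nearer to FG petals in 14 higher and 13 lower members, and nearer to the mean of the sports in 18 and 12. FG leaves carry the genotype of FG petals, and their mean was within 1 log2 unit of FG petals in 6 members of each direction.

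Among members well above background on all 12 arrays, PD0028_066413 and PD0028_042413 were raised most in leaves. PD0028_066413 exceeded the petal mean by 7.16 ± 0.29 (SE; limma, adjusted p = 2.1e-09). PD0028_042413 was at 6.89 to 7.02 on the 3 arrays of FG leaves, −0.35, −0.39, and 0.08 in FGD petals, 3.74, 3.13, and 2.95 in FW petals, and −2.28, −1.91, and −3.51 in FG petals. It exceeded the petal mean by 6.81 ± 0.29 (adjusted p = 2.82e-09), and its leaf arrays lay far above all petal arrays. Of the same members, those lowest in leaves relative to the petals were PD0028_051839 and PD0028_131742. PD0028_051839 was at −2.29, −3.43, and −2.86 in FG leaves, 1.72, 1.50, and 1.57 in FGD petals, 0.64, 2.07, and 1.47 in FW petals, and −1.18, 0.16, and −2.16 in FG petals. Leaves lay below all petals, FG petal replicate 2 was nearest to the sports, and the difference from the petal mean was −3.50 ± 0.44 (adjusted p = 2.04e-05). PD0028_131742 was at −3.61, −3.89, and −3.66 in FG leaves, −3.11, −2.93, and −3.48 in FGD petals, −2.31, −2.72, and −3.42 in FW petals, and 1.49, 0.08, and 1.71 in FG petals. Here the leaf arrays lay below all petal arrays, next to those of the sports. The leaf mean differed by −0.55 from FGD, −0.90 from FW, and −4.81 from FG petals, which the choice of members had set above the sports. The difference from the petal mean was −2.09 ± 0.32 (limma, adjusted p = 0.000113), and it came mainly from FG petals. With the slide as a block this difference was −1.34 and was not called (adjusted p = 0.106).

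**Figure D5:**
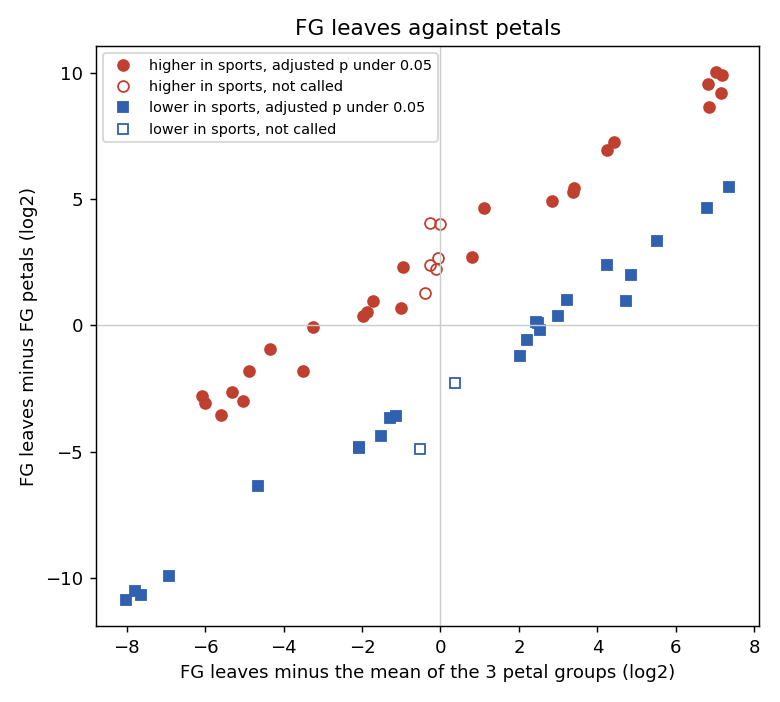
Difference of FG leaves from the mean of the 3 petal groups (horizontal) and from FG petals (vertical) for the 57 probes, in log2 units. Circles are higher and squares lower members, and filled symbols passed an adjusted p of 0.05 in the horizontal comparison (limma); both kinds run from well below 0 to about 7 on the horizontal axis.

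On the array, the members lay in rows 8 to 999 of 1064 and columns 4 to 168 of 170. In 4 equal blocks of rows, 14, 17, 18, and 8 members were found, and 4 members had another member within 5 rows and 5 columns. No spot of a member was marked as an outlier on any array. The mean signal over the 12 arrays had a median of 456 in the higher and 375 in the lower members, against 506 over all 70270 probes.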

How the data were processed

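RNA of 12 samples was hybridized to 12 1-color arrays. Scanner files deposited by the authors give each spot a background-corrected intensity from Feature Extraction (version 10.10.1.1 per the file headers and 10.7.1.1 per the processing notes; the paper's text names another). They also deposited log2 values of the same arrays, scaled to the 75th percentile, with a centering constant for each probe that they do not name. Members were found on these deposited log2 values.

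Here, log2 intensities were scaled by subtracting each array's 75th percentile; control spots were left out and outlier spots treated as missing. The 70270 probes with a mean signal of at least 100 were compared with limma (version 3.58.1, R 4.3.3, with the package data.table, version 1.17.8) in a fit of all 12 arrays with 4 group means and Benjamini-Hochberg adjustment over all 70270; adjusted p values are from limma. For a bound, each dim array was given the level of its dimmest probe well above background unless the probe itself was brighter, and the brighter group's mean was set against the mean of these. A bound holds for that level only, because the limit of detection of the single spot was not estimated. The members and lists were chosen with earlier results of these data known. Named probes are the member that the study's lists pair with a gene, the 2 higher and 2 lower members with the largest smaller difference from FG petals, and the 2 called members with the largest difference in each direction of each test, all well above background on the arrays compared. Others were chosen after their values were seen. Plots used matplotlib 3.10.9 (Python 3.11.15), and the fits were tested on simulated data.

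The main fit did not treat arrays of the same replicate number as paired. Alternatives were quantile normalization, median scaling, background correction of the median signals by normexp with an offset of 50, the other source of the values, no filter, a filter that asks for all 3 arrays of some group to be well above background, a floor of 20 on the signal, fold limits of 4 and 8, the slide or the replicate number as a block, each array left out, and, chosen after seeing the data, outlier spots kept and FGD linked to FG petals through the FW arrays of 2 slides. The authors' genes for the other probes were not used here.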

Additional observations from a re-analysis of the deposited data

Results flagged for a closer look

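Named probes are given here because the changes of the bud sports from FG petals differed from each other, by the limma test of FGD against FW petals over 70270 probes. The change in FGD petals was smaller than that in FW petals for PD0028_118605 (log2 difference, −3.55; adjusted p = 3.15e-05) and PD0028_066413 (−3.53; adjusted p = 1.68e-05). For the lower member PD0028_024790 the fall was also smaller in FGD petals, at a difference of 2.17 (adjusted p = 5.8e-08). The rise was larger in FGD petals for PD0028_063791, by 1.62 (adjusted p = 0.00797), and for PD0028_190240, by 1.62 (adjusted p = 0.036). With the slide as a block, PD0028_063791 was not called (limma, adjusted p = 0.0578), and the difference of PD0028_190240 was 0.83. The call of PD0028_190240 was lost when any FGD array was left out and when all probes were tested (limma, adjusted p = 0.0736 for the latter). The probes of this section were picked for this difference, except PD0028_190240, which was taken from the study's list.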

How the results depend on the processing

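The number of probes that met the limits depended on the processing. With normexp background correction, 11 probes were higher and 14 lower; with no signal filter, 80 and 91; with the filter on probes well above background, 76 and 85; and with a fold limit of 8, 14 and 16. At a fold limit of 4, 50 were lower. Leaving out 1 array gave 24 to 52 higher and 19 to 52 lower probes. The cause was not tested. The counts of members called between FGD and FW petals, and between FG leaves and the petal mean, stayed within 1.5 times under all alternatives, although with the slide as a block only 3 of the 6 members higher in FGD petals were among the 8 called. The same 57 members were tested in each. The median difference of FW petal replicate 1 from FG petals on its slide was 2.27 in the higher and −2.62 in the lower members with normexp, and 3.24 in the higher members with a signal floor of 20; under the other alternatives it moved by less than the spread between FG arrays. For the named probes no direction was reversed among called values. Of 264 values of FGD against FW petals, 5 lost and 4 gained a call; of 264 for leaves, 1 lost it.

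Same-numbered arrays of different groups were compared in 18 pairs, and their deviations correlated at −0.36 to 0.39, 5 pairs above 0.1. Without the same values for arrays of different numbers, these correlations do not settle whether the numbers pair the arrays. With the replicate number as a replicate block, the calls between FGD and FW petals were the same 6 higher and 20 lower members, and those of leaves the same 25 higher and 24 lower. Spots near background limit the size of the changes, since 27 members were not well above it on some array.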
